A study of Mus musculus with 2 samples.

Results

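Rab proteins are the largest family of small GTPases that direct membrane traffic. Each switches between a GTP-bound form, which recruits effector proteins to a particular membrane, and a GDP-bound form, which GDP dissociation inhibitors (GDIs) carry through the cytosol. Guanine nucleotide exchange factors (GEFs) switch a Rab on, GTPase-activating proteins (GAPs) switch it off, and lipid groups attached to cysteines at the carboxyl end hold it on the membrane. In hippocampal neurons Rabs are best known for the cycle of synaptic vesicles and for the movement of receptors through endosomes. The members described here are all genes with a protein-coding transcript whose symbol is Rab, a number and at most a letter and a further digit. The rule gave 59 genes of the 55536 annotated genes in the gene table, and of 22028 protein-coding genes.

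The samples were 2 total RNA libraries from hippocampus tissue, which the labels call a layer of hippocampus, of adult male mice of strain B6CASTF1/J aged 8 to 10 months. This strain is the first-generation hybrid of C57BL/6J and CAST/EiJ. Replicate 1 came from animal 2 and replicate 2 from animal 4. Both libraries were made from 300 ng of RNA with a directional kit and ERCC spike-in RNAs, and the spike-in label names ribosomal-reduced libraries. The labels give both animals the same donor entry, no treatment or second group, and no dissection or sequencing date. The design therefore allows the description of levels over 2 animals and 1 comparison, that of the 2 libraries. Where the labels' animal numbers do not mark separate dissections, the spread between the libraries may be partly technical.

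The libraries held 23458117 and 29584307 expected counts. Levels are in TPM, a measure of transcript abundance with a fixed total per library, which are corrected for transcript length and can be compared between genes. All 5 neuronal, all 4 astrocyte, all 4 oligodendrocyte and all 5 hippocampal subfield markers were at 1 TPM or more in both libraries. Neuronal markers summed to 2494 TPM in replicate 1 and 2524 TPM in replicate 2, astrocyte markers to 1097 and 1064 TPM, oligodendrocyte markers to 1563 and 1527 TPM, and microglial markers to 68.0 and 81.7 TPM. The 9 choroid plexus markers stood apart, at a summed 17.9 TPM in replicate 1 and 1792 TPM in replicate 2, and none of them was at 0 in either library. In bulk tissue fewer cells of a type and less RNA per cell cannot be told apart.

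Of the 59 Rab genes, 51 were detected in both libraries, that is at 1 TPM or more, a share of 86.4% against 59.1% of all protein-coding genes. Mean levels ran from 378 TPM for Rab3a to 0.0050 TPM for Rab44. There were 9 genes at 100 TPM or more, 34 from 10 to under 100 TPM, 9 from 1 to under 10 TPM and 7 under 1 TPM. Together the Rab genes summed to 2849 TPM in replicate 1 and 2878 TPM in replicate 2, a mean of 2864 ± 20.5 TPM (SD, n = 2). The 3 highest genes held 26.8% and 27.7% of that sum, and the 10 highest held 57.2% and 59.0%. Over all 59 genes the median was 22.4 TPM. Over the 51 detected genes it was 25.7 TPM, against 17.4 TPM for all 13029 detected protein-coding genes.

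**Figure D1:**
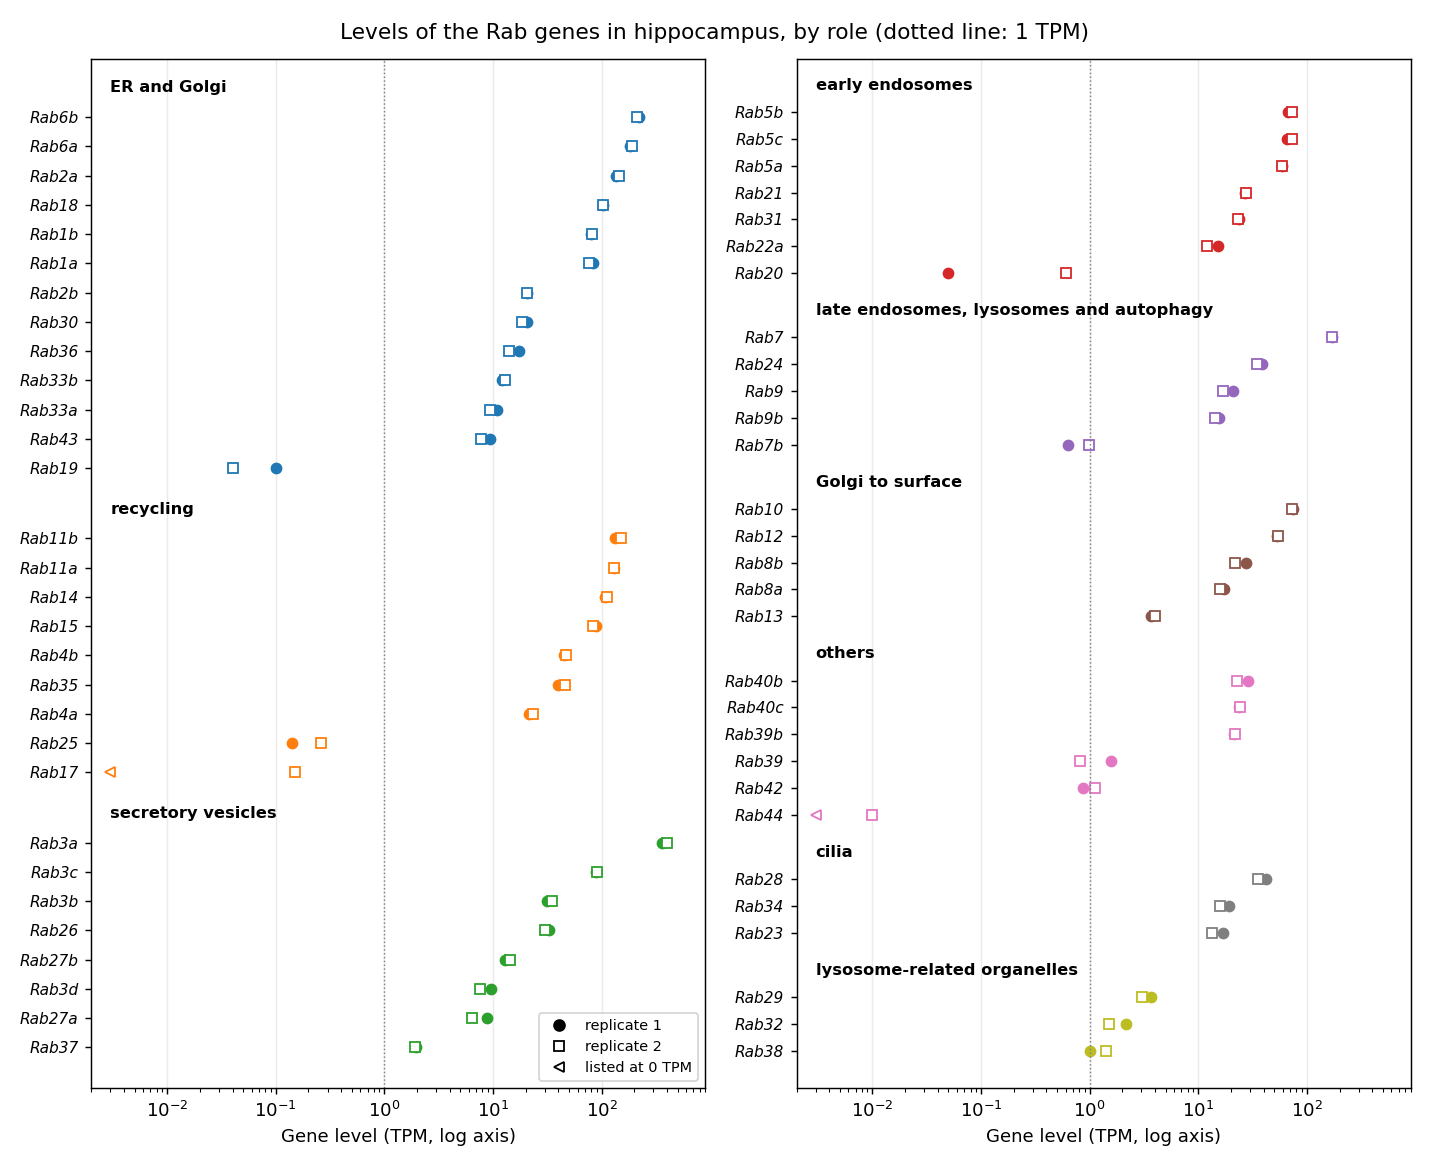
Gene level in TPM on a log axis for each of the 59 Rab genes, grouped by role, with filled circles for replicate 1, open squares for replicate 2 and open triangles at the left edge for genes listed at 0 TPM. Circle and square lie close together for most genes above 1 TPM, and Rab20, Rab17 and Rab44 show the widest gaps among the genes below it.

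The coding ends of the genes show what the family shares beyond its name. For each gene the coding transcript with the highest TPM over both libraries and both quantifications was read from the GENCODE M21 transcripts, which follow the mm10 (C57BL/6J) assembly; CAST/EiJ alleles may differ and were not read. In the chosen transcript of all 59 genes at least 1 of the last 4 codons before the stop was a cysteine codon (TGT or TGC on the coding strand), compared with 10.7% of 21534 protein-coding genes with a complete coding sequence. For those genes the longest complete coding sequence starting with ATG was read, whatever its level, so the choice of transcript was not the same. More than 1 cysteine codon lay among the last 5 codons in 50 of the 59 genes and in 1.93% of all those genes. Other transcripts of the genes can lack it: 14 of 127 complete coding transcripts, in 14 genes, had no cysteine codon among the last 4. They include Rab11a-206, at 49.8% of the Rab11a TPM by the first quantifier but listed at 0 by the second, and Rab18-201, at 41.2% of the Rab18 TPM by the first. The last 30 coding bases are shown for some paralogs with the widest and the narrowest separation in level and for each kind of ending. Capitals mark cysteine codons among the last 5 codons.
Rab3a-201: caggcgccacctcatcaggatTGTgccTGC
Rab3b-201: ccacctctgctgcagcagaacTGCtctTGT
Rab3c-201: cctcctccaccacagcccaacTGTggcTGC
Rab3d-201: ccacccccacagccgagcagcTGCagcTGT
Rab7-205: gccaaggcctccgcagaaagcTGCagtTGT
Rab7b-201: tctccaggccagccaaagagcagaTGCTGC
Rab1a-201: ccagtcaagcagtcaggtggaggcTGCTGC
Rab1b-201: cctgtgaagcctgctagcggtggcTGCTGC
Rab5b-201: cagcagaacaagagccagTGTTGTagcaac
Rab11a-208: aagccaaaggtgcagTGCTGTcagaacatc
Rab11b-203: cccaacaagctgcagTGCTGCcagagcctg
Rab8a-201: aggaccagcttcttccggTGCagtctcctg
Rab34-203: gccagcaagaaaaaggccacaTGTTGTccc

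These stretches are coding exon on mm10. The Rab3 ends lie at chr8:70758056-70758085 on the plus strand (Rab3a), chr4:108940781-108940810 on the plus strand (Rab3b), chr13:110061818-110061847 on the minus strand (Rab3c) and chr9:21910487-21910516 on the minus strand (Rab3d). Those of Rab7 and Rab7b lie at chr6:88000438-88000467 on the minus strand and chr1:131711665-131711694 on the plus strand. Rab1a ends at chr11:20224813-20224842 on the plus strand and Rab1b at chr19:5100381-5100410 on the minus strand. On the minus strand lie Rab5b at chr10:128679533-128679562, Rab11a at chr9:64716852-64716881 and Rab11b at chr17:33747671-33747700. On the plus strand lie Rab8a at chr8:72180105-72180134 and Rab34 at chr11:78191809-78191838.

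A cysteine codon, another codon and a final cysteine codon ended 20 genes, including all 4 Rab3 genes, both Rab6 genes, both Rab4 genes and Rab7. Adjacent cysteine codons closed 15 genes, among them both Rab1 and both Rab2 genes. In 15 more, the last cysteine codon was in position 4 from the end, and 6 of these, such as Rab11a and Rab11b, had another directly before it, whereas 9, such as Rab8a and Rab18, did not. Of the rest, 6 ended like the Rab5 genes and 3 like Rab34. The medians of the 3 commonest kinds lay close together, at 22.0 TPM for the first kind, 20.5 TPM for the second and 23.9 TPM for the third. Paralogs of 1 number shared the kind of ending in 20 of 21 pairs, and the exception was Rab7 and Rab7b, the pair shown above with different ends. With gaps counted as differences, these also had the lowest identity of coding bases, 50.9%, while Rab6a and Rab6b had the highest, 78.4%. The Rab7b transcript read, Rab7b-201, has 157 codons against 207 in Rab7-205. The missing codons lower the identity of that pair, so it does not measure how far the shared part differs.

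Secretory vesicle Rabs held 19.7% ± 0.743 (SD, n = 2) of the summed Rab TPM with 8 genes, all detected. Rab3a, which acts in the docking and release of synaptic vesicles, was the highest Rab gene at 360 TPM in replicate 1 and 397 TPM in replicate 2. Its share of the summed Rab TPM was 13.2% ± 0.825. Rab3c, its relative on synaptic vesicles, stood at 88.3 and 89.9 TPM. Rab3b had 31.7 and 34.6 TPM and Rab3d, best known from exocrine granules, 9.66 and 7.54 TPM. Within each library the 4 genes kept the same order. Rab3a exceeded Rab3c 4.08-fold in replicate 1 and 4.41-fold in replicate 2, Rab3b 11.4-fold and 11.5-fold, and Rab3d 37.2-fold and 52.7-fold. The deposited TPM bounds of every Rab3 pair were apart in both libraries, as they were for Rab27b (12.9 and 14.4 TPM) over Rab27a (8.84 and 6.40 TPM), a pair that tethers secretory granules and melanosomes. Rab26, linked to secretory granules and to autophagy of synaptic vesicles, had 32.8 and 29.9 TPM. Rab37, a granule Rab of mast cells, was the lowest of the group at 1.95 and 1.93 TPM.

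ER and Golgi Rabs made the largest share of the summed Rab TPM, 31.1% ± 0.386, with 12 of 13 genes detected. Rab6b and Rab6a, which act in traffic at and from the Golgi, ranked next after Rab3a. Rab6b had 220 TPM in replicate 1 and 210 TPM in replicate 2, and Rab6a had 183 and 189 TPM. The bounds of this pair were apart in both libraries, with folds of 1.21 and 1.11, while the second quantifier gave folds of 1.04 and 1.02. Rab2a, a Rab of transport between ER and Golgi, had 134 and 146 TPM, 6.53-fold and 7.10-fold the level of Rab2b (20.6 and 20.5 TPM). Rab18, known for roles at the ER and lipid droplets, had 104 and 103 TPM. Rab1a (83.5 and 76.3 TPM) and Rab1b (79.7 and 81.1 TPM), which both carry ER to Golgi traffic, swapped order between the libraries. Also without separation were Rab33b (12.1 and 12.9 TPM) and Rab33a (10.8 and 9.44 TPM), Golgi Rabs with a part in autophagy. Rab19 was the lowest of the group at 0.10 and 0.040 TPM, from 2 reads and 1 read. The other 3 genes, Rab30, Rab36 and Rab43, lay between 7.81 and 20.7 TPM.

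Recycling endosome Rabs held 20.2% ± 0.525 of the summed Rab TPM, with 7 of 9 genes detected. Rab11a and Rab11b return receptors from recycling endosomes to the surface. Rab11b had 134 TPM in replicate 1 and 152 TPM in replicate 2, and Rab11a had 128.7 and 129.4 TPM. Their bounds overlapped in at least 1 library, and by the second quantifier Rab11b lay below Rab11a, at 0.84 and 0.95 of its level. Rab14, which links Golgi and endosomes, had 107 and 111 TPM, and Rab15, a regulator of early endosomal sorting enriched in neurons, 89.6 and 83.9 TPM. Rab4b (45.2 and 47.4 TPM) exceeded Rab4a (21.5 and 23.2 TPM) 2.10-fold and 2.04-fold. These 2 genes mark the fast route back to the surface. Rab35 had 39.9 and 45.7 TPM. The epithelial members were near 0: Rab25 had 0.14 and 0.26 TPM, from 2 reads and 1 read, and Rab17 was listed at 0 TPM in replicate 1 and 0.15 TPM, from 4 reads, in replicate 2.

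Early endosome Rabs held 9.20% ± 0.190 of the sum, with 6 of 7 genes detected. The 3 Rab5 genes, which govern fusion of early endosomes, lay close together. Rab5b had 67.5 and 72.5 TPM, Rab5c 66.0 and 73.7 TPM, and Rab5a 58.6 and 59.2 TPM. Bounds of Rab5b and Rab5c were not apart in both libraries, while Rab5a lay below each of them in both. Among the other members Rab21, Rab31 and Rab22a lay between 12.04 and 27.28 TPM. Rab20 was the lowest, with 0.050 TPM from 1 read in replicate 1 and 0.61 TPM from 15 reads in replicate 2.

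In the group of late endosomes, lysosomes and autophagy, which held 8.44% ± 0.304, 1 gene predominated. Rab7, the Rab of the late endosome and lysosome, had 171 TPM in replicate 1 and 170 TPM in replicate 2. Rab7b, a separate gene with a role between endosomes and the Golgi, had 0.63 and 0.98 TPM, from 15 and 27 reads. The ratio of the pair was 271-fold and 173-fold, the widest of the 21 paralog pairs. Rab24, linked to autophagy, had 38.9 and 35.0 TPM. The X-linked genes Rab9 (21.04 and 16.78 TPM) and Rab9b (15.4 and 14.1 TPM), which return receptors from late endosomes to the Golgi, were apart in both libraries by 1.36-fold and 1.19-fold.

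The 5 genes listed here under the route from Golgi to surface held 6.03% ± 0.240 and were all detected. Each gene was placed in 1 group only, so other routes of a gene such as Rab12 were not counted. Rab10, which drives membrane addition and is a substrate of the kinase Lrrk2, led with 74.7 and 73.1 TPM. Rab12, another Lrrk2 substrate, had 53.4 and 53.9 TPM. Rab8b (27.6 and 21.6 TPM) lay above Rab8a (17.1 and 15.9 TPM) by 1.61-fold and 1.36-fold. Rab13, a Rab of epithelial junctions, was lowest at 3.66 and 3.99 TPM.

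Ciliary Rabs held 2.48% ± 0.354 with Rab28 (41.6 and 35.2 TPM) highest and Rab23 (16.9 and 13.3 TPM), a regulator of Hedgehog signalling, lowest. Rabs of lysosome-related organelles held 0.225% ± 0.0233. They were led by Rab29, which recruits Lrrk2, at 3.70 and 3.06 TPM, followed by the melanosome Rabs Rab32 and Rab38, the latter at 1.01 and 1.42 TPM. Of the 6 genes placed in no such group, Rab40b (28.5 and 22.9 TPM) and Rab40c (23.8 and 24.1 TPM), which carry a SOCS box, did not keep 1 order across the libraries. Rab39b, an X-linked gene of intellectual disability, had 21.4 and 21.9 TPM, 13.7-fold and 26.6-fold the level of Rab39 (1.56 and 0.82 TPM). Rab42 had 0.86 and 1.11 TPM. Rab44, a large member, was listed at 0 TPM in replicate 1, and 1 read gave 0.010 TPM in replicate 2. A count of 0 in replicate 1 allows up to 3 reads, or 0.128 CPM (CPM, counts scaled to library size).

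**Figure D2:**
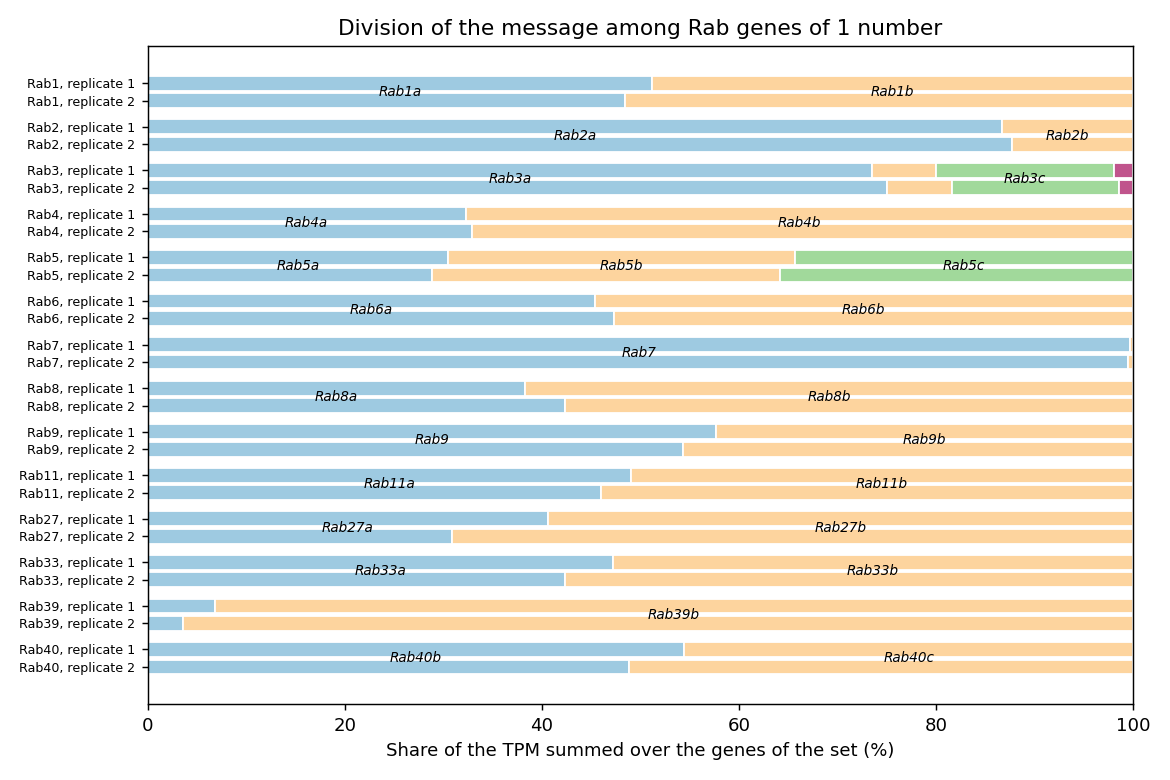
Share of the summed TPM held by each gene of the 14 sets of Rab genes with 1 number, in percent, with 1 bar per library and genes in alphabetical order from left to right (in the Rab3 bars the unlabelled segments are Rab3b, then Rab3d at the right end). Rab7 and Rab39b fill most of their bars, while Rab1, Rab11 and Rab40 divide nearly evenly.

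The order of the levels was firm only in places. Between the 58 neighbouring pairs in the ranking, the TPM bounds were apart in both libraries at 7 steps, in 1 library at 13 steps and in neither at 38. The 7 steps followed Rab3a, Rab6b, Rab7, Rab11a, Rab18, Rab5c and Rab27a, so Rab3a stood apart from all others and most neighbours did not differ beyond their bounds. Among paralogs, which can be further apart in rank, 16 of 21 pairs were apart in both libraries. The other 5 were Rab1a and Rab1b, Rab11a and Rab11b, Rab33a and Rab33b, Rab40b and Rab40c, and Rab5b and Rab5c. The bounds cover counting and assignment error within a library only. They did not contain the TPM they belong to in 1 or both libraries for 12 of the 59 genes. Rab3a is one of these, with 359.8 TPM beside bounds of 334.8 and 351.8 TPM in replicate 1.

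A second quantification of the same reads, in tables with the column names of another program, gave similar gene levels. It put 51 Rab genes at 1 TPM or more in both libraries, 50 of them detected by both programs. Its mean level was within 1.25-fold of the first for 48 of the 59 genes. The median ratio of second to first was 0.909 over the Rab genes and 0.905 over all detected protein-coding genes. Rab3a was highest here too, at 365 ± 15.4 TPM (SD, n = 2). Rab14 was higher in this quantification, at 137 against 109 TPM, as was Rab18, at 128 against 103 TPM, whereas Rab43 was lower, at 5.08 against 8.55 TPM. Rab43 shares its strand with overlapping annotated genes, among them 9930120I10Rik. In all, 17 Rab genes overlapped another annotated gene on the same strand and 21 on the opposite strand, such as Rab3a with Mpv17l2 and Rab10 with Rab10os. The sources used here do not say whether counting used strand, so reads in these overlaps cannot be told apart. In 18 of 21 paralog pairs the gene with the higher mean by the first program was also higher by the second in both libraries. The exceptions were Rab1a and Rab1b, Rab11a and Rab11b, and Rab5b and Rab5c. Rab40b and Rab40c count among the 18, although by the first program their order changed between the libraries.

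**Figure D3:**
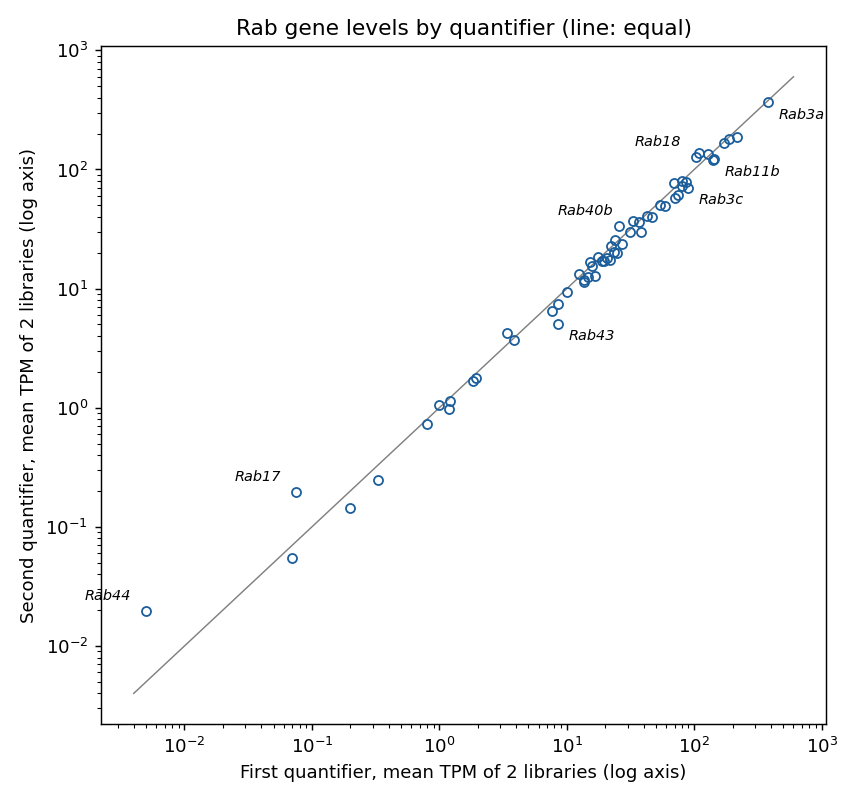
Mean TPM of each Rab gene by the second quantifier against the first, both on log axes, with the line of equal values. Most points lie on or just below the line, and Rab43 at 8.55 against 5.08 TPM lies furthest below it among genes over 1 TPM.

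No Rab gene passed the test of a difference between the 2 libraries. With edgeR, which compared the libraries and not conditions, 0 of the 52 Rab genes with enough reads passed an adjusted p of 0.05, against 0.806% of all 16123 genes tested. At an unadjusted p under 0.05 there were also 0 Rab genes, against 4.83% of all genes. None of the 52 reached a 2-fold difference, which 6.83% of all genes did. The genes tested were not matched to the Rab genes in level and include many with few reads. These shares therefore do not show that Rab genes differ less than other genes of their level. The smallest adjusted p among the Rab genes was 0.9999 and ranged from 0.797 to 0.9999 over the alternatives. Not tested were Rab42, Rab7b, Rab20, Rab25, Rab17, Rab19 and Rab44, whose reads were too few. The spread that the test allows was itself estimated from the difference between these 2 libraries. A gene can therefore pass only where it differs more than other genes of its level, and a difference common to most genes cannot be found. With 1 residual degree of freedom and a fitted coefficient of variation of 0.191 the test also leaves small differences undetected, so these counts do not show equal levels.

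Log2 ratios of replicate 2 over replicate 1 had a median of 0.11 over the Rab genes, with 34 above 0 and 18 below. Over all tested genes the median was -0.00, with 49.8% above 0. For Rab3a the ratio was 0.26, for Rab6b 0.05 and for Rab7 0.11. These are ratios of counts, which are not corrected for transcript length, and TPM did not always go the same way. Rab3a rose from 360 to 397 TPM, while Rab6b went from 220 to 210 TPM and Rab7 from 171 to 170 TPM. The split above therefore does not show that most Rab genes had a higher TPM in replicate 2. The widest ratios were -0.77 for Rab39, with 63 and 45 reads, and 0.58 for Rab38, with 21 and 40 reads. Scaling by the ERCC spike-ins moved the median of all genes to -0.23, with 16.9% above 0. It moved that of the Rab genes to -0.12, with 8 above 0 and 44 below, a split near that of all genes. The sign of the Rab median thus depended on the scaling. Rescaling shifts the ratios of all genes by nearly the same amount. The gap between the Rab median and that of all genes could therefore not change with it. Of the choroid plexus markers, 8 of 9 passed as higher in replicate 2, with Ttr at 8.68 TPM in replicate 1 and 1703 TPM in replicate 2. Their part in the Rab values, including the higher reads of Rab20 and Rab17 in replicate 2, was not tested. No gene of the other 7 marker lists passed.

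**Figure D4:**
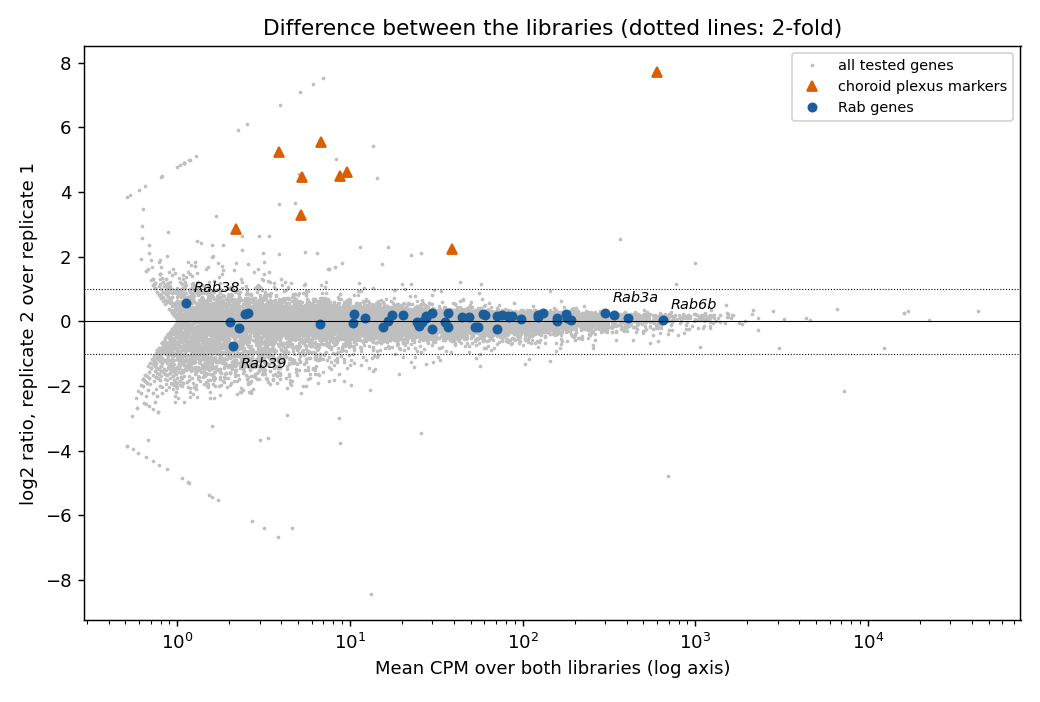
Log2 ratio of replicate 2 over replicate 1 against mean CPM on a log axis for all tested genes (grey), Rab genes (blue circles) and choroid plexus markers (orange triangles), with dotted lines at 2-fold. All 52 Rab genes lie between the dotted lines and all 9 markers lie above them.

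Transcript tables divided the Rab genes into 256 annotated transcripts, of which 155 were protein-coding, 53 had a retained intron, 35 were processed transcripts and 13 were targets of nonsense-mediated decay. Coding transcripts carried 92.1% ± 0.784 of the summed Rab TPM by the first quantifier and 86.9% ± 0.525 by the second. In 44 of the 51 detected genes the same transcript led in both libraries. The second quantifier gave 43, and 38 genes had 1 leading transcript in all 4 combinations of library and program. Rab3a was among these, with Rab3a-201 at 81.4% and 84.2% of its TPM. The counts include Rab2a, Rab10, Rab8b, Rab39b, Rab9b and Rab33a, which have 1 annotated transcript each and could not differ. The share over all detected protein-coding genes was not computed.

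Rab6a has an alternative exon whose versions both programs listed. Rab6a-201 and Rab6a-203 use different versions of a coding exon of 106 bases, the exon that distinguishes the isoforms known as Rab6A and Rab6A'. Rab6a-203 also has a shorter coding sequence, of 175 codons against 208. The 2 versions of the exon are 71.7% identical, and the 30 differing bases are in capitals.
Rab6a-201: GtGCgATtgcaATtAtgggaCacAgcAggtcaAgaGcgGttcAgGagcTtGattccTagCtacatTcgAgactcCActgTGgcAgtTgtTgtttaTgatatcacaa
Rab6a-203: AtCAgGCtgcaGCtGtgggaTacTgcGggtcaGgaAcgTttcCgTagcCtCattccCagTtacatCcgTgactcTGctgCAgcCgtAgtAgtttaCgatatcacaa

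The exons lie close together on the plus strand, at chr7:100629838-100629943 for Rab6a-201 and chr7:100629666-100629771 for Rab6a-203. Rab6a-201 held 82.7% of the Rab6a TPM in replicate 1 and 83.7% in replicate 2, and Rab6a-203 held 12.4% and 13.0%. By the second quantifier Rab6a-201 held 71.1% and 74.9% and Rab6a-203 7.0% and 8.3%. Rab6a-202, with 208 codons, has the same version of the exon as Rab6a-203 and was listed at 0 by the first quantifier. By the second, all coding transcripts of Rab6a together held 78.4% and 83.3%. The version in Rab6a-201 was thus the more abundant in each library by each program. Rab28 likewise had alternative last coding exons. Rab28-201 held 70.5% and 73.2% of the Rab28 TPM and Rab28-203, whose coding sequence differs from it at the end, 14.5% and 12.1%.

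Noncoding transcripts held 30% or more of the gene's TPM in both libraries for 5 of the 51 detected genes by the first quantifier, Rab11b, Rab26, Rab8a, Rab36 and Rab23, and for 20.6% of all detected protein-coding genes. By the second quantifier there were 10 such Rab genes, against 24.4% of all: Rab26, Rab8a, Rab36 and Rab23 again, with Rab14, Rab18, Rab34, Rab35, Rab37 and Rab40b. Rab26 had 46.5% and 49.7% in retained-intron transcripts, and 49.9% and 47.9% by the second quantifier. For Rab36 the retained-intron share was 47.1% and 36.8%, and for Rab23 it was 47.4% and 52.6%. Rab8a had 49.0% and 51.5% in a single retained-intron transcript, Rab8a-202, but this came from 52.3 and 68.8 reads. That transcript is 542 bases long, against 4550 bases for the coding Rab8a-201, which had 547.7 and 653.2 reads. Short transcripts weigh heavily in a share of TPM, and for the 4 genes other than Rab11b both programs put the noncoding share above 30% in both libraries.

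In Rab11a and Rab11b the 2 programs divided the same reads differently. By the first, the decay transcript Rab11b-204 held 39.3% and 39.6% of the Rab11b TPM, and by the second 0.0% and 0.21%. The second placed 26.2% and 29.0% on the processed transcript Rab11b-205, which the first listed at 0. For Rab11a the first put 51.5% and 48.1% on Rab11a-206, a transcript of 462 bases, while the second listed it at 0 in both libraries. The coding sequence of Rab11a-206 has 153 codons against 216 in Rab11a-208. It stops at another place, with different last codons. Rab11a-201 was listed at 0 by the first and at 48.1 and 50.1 TPM by the second. Rab11a-208, whose end is shown above, held 33.2% and 33.9% by the first and 23.4% and 23.8% by the second. The gene levels of the pair differed far less between the programs than their transcripts did. Rab37 changed its leading transcript between libraries under both programs, from Rab37-201 to Rab37-202, on 55 and 82 reads.

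**Figure D5:**
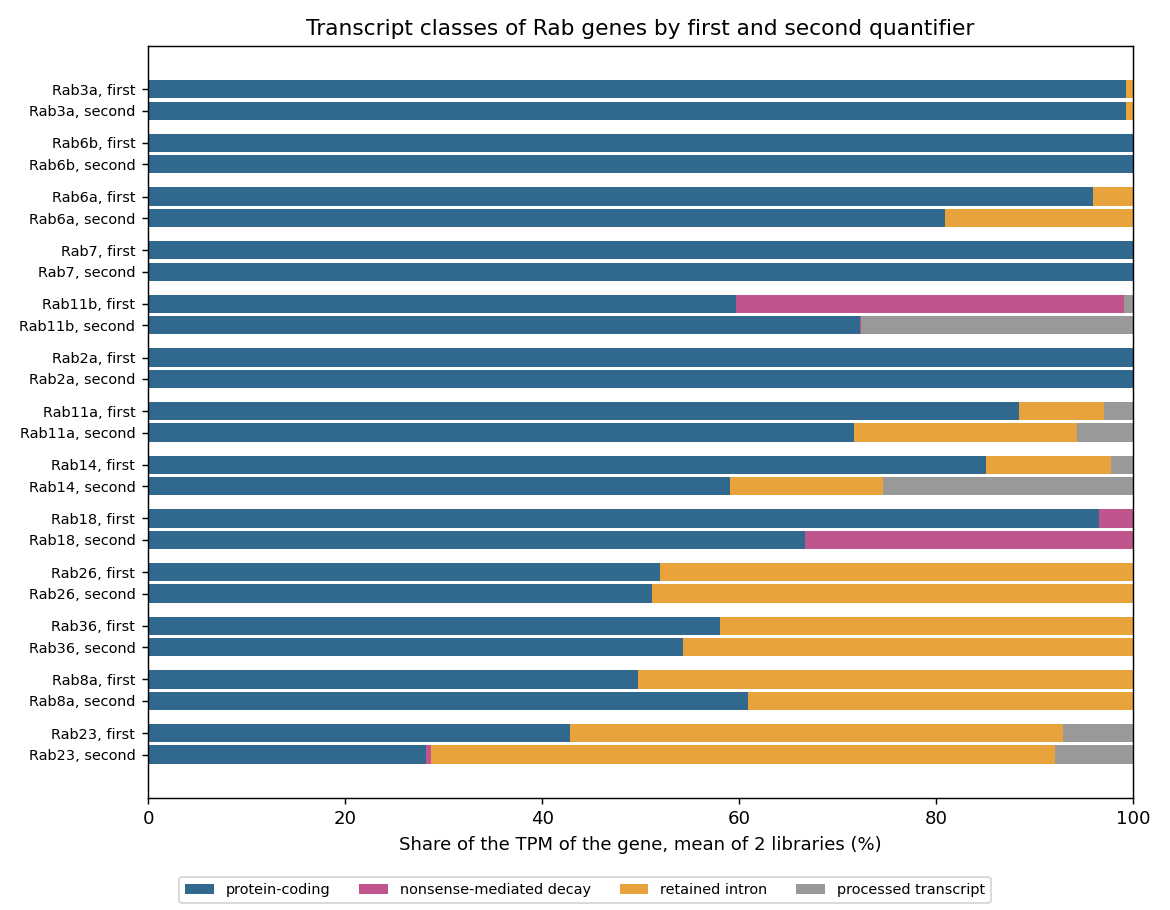
Share of each gene's TPM by annotated transcript class, in percent, as the mean of 2 libraries, for the 9 Rab genes at 100 TPM or more and 4 with a high retained-intron share, by the first and second quantifier. Rab6b, Rab7 and Rab2a are all protein-coding by both, Rab26 is divided similarly by both, and the decay class of Rab11b appears only by the first.

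The genes that act on Rabs were read from lists of 143 genes. In the GDI and prenylation list all 8 genes were detected. Gdi2, which extracts GDP-bound Rabs from membranes, had 149 TPM in replicate 1 and 158 TPM in replicate 2. The prenyltransferase subunits were lower than Gdi2, with Rabggtb at 33.3 and 35.3 TPM and Rabggta at 22.6 and 22.7 TPM, and so were the escort proteins Chm (25.1 and 19.7 TPM) and Chml (2.06 and 3.04 TPM), the lowest of its list. Of 33 GEFs 30 were detected by the first quantifier, from Sbf1 at 172 and 154 TPM down to Dennd2c at 0.19 and 0.22 TPM. By the second quantifier Sbf1 had 98.0 and 85.8 TPM and lay below Madd, at 113 and 91.1 TPM. Of 40 GAPs 38 were detected, the highest being Rabgap1l at 126 and 118 TPM, while Tbc1d21 was listed at 0. The subunits of the Rab3 GAP complex, Rab3gap1 and Rab3gap2, had 40.8 and 38.9 TPM and 35.4 and 32.99 TPM.

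Of 52 effectors 45 were detected. Highest by the first quantifier was Rims1, the active zone scaffold that binds Rab3, at 112 and 102 TPM. Rph3a, a vesicle protein that binds Rab3 and Rab27, had 106 and 100 TPM. By the second quantifier Rph3a, at 113 and 105 TPM, lay above Rims1, at 112 and 101 TPM. Sytl3 was the lowest at 0.39 and 0.25 TPM. The kinase Lrrk2, which phosphorylates several Rabs, had 15.4 and 16.2 TPM, Lrrk1 1.72 and 1.5 TPM and the phosphatase Ppm1h 37.6 and 33.03 TPM. Among 7 Rab-like GTPases Rabl6 was highest at 82.7 and 73.2 TPM and Rasef was listed at 0. By edgeR 0 of the 135 list genes tested passed, against 0.806% of all genes, and their median log2 ratio was -0.03.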

How the data were processed

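Total RNA was sequenced from hippocampus of 2 mice, 1 library each, which the labels put in 1 group. Per the labels and the files' own records, values are on mm10 with GENCODE M21; the file headers have the column names of RSEM (first quantifier) and kallisto (second), while the sources used here name neither program versions nor strand use in counting. Expected counts, as the authors deposited them, are estimated reads without scaling between libraries, where the program splits shared reads. The deposited TPM values were divided by effective length by the authors, and for transcripts the deposited percent values express TPM relative to the whole gene. The deposited TPM bounds have no stated level.

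Second-quantifier transcripts were summed per gene. Levels are means and SD over 2 animals; detection was TPM of 1 or more. Libraries were compared using edgeR 4.0.16 (R 4.3.3), after rounding the expected counts: CPM of 1 or more in at least 1 library, TMM scaling, an intercept alone, trended dispersion, residual deviance against chi-square with 1 degree of freedom, Benjamini-Hochberg adjusted p under 0.05, and log2 ratios with a prior count of 2. No quasi-likelihood test between groups exists with 1 group. The test was checked on simulated data. Totals were 23458117 and 29584307 expected counts, of which 0.210% and 0.243% lay outside annotated genes and were left out of the tests. With 3 counts as the limit that a count of 0 allows, the limits were 0.128 and 0.102 CPM; these cover counting error only.

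Coding identity came from global alignment with Biopython 1.88, as identical bases over all aligned columns, gaps included. Alternatives were DESeq2-type size factors, spike-in scaling, no filter, the second quantifier, a common dispersion, other TPM thresholds and each library alone. Every Rab gene is accounted for. Values are given in full for the 10 highest, the highest and lowest of each role, paralogs and genes under 1 TPM, and for the highest and lowest of each pathway list with regulators chosen by name; an item that falls under this rule is not reported here. The members and lists were chosen with earlier results of these data known. The symbol Dennd2b of the GEF list had no match and was not used.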

Additional observations from a re-analysis of the deposited data

Results flagged for a closer look

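Reads above the limit of 3 counts appeared in both libraries in 3 annotated noncoding genes that bear the name of a Rab gene and are no members. Rab10os, annotated antisense to Rab10 on chromosome 12, had 723 and 694 expected counts, or 22.8 and 17.5 TPM, in replicates 1 and 2. Rab26os, antisense to Rab26 on chromosome 17, had 48 and 25 expected counts by the first quantifier and 4 in each library by the second. The sources used here do not say whether counting used strand, so reads of a Rab gene and its antisense partner cannot be told apart. The processed pseudogene Rab11b-ps2 on chromosome 19 had 66.5 and 50.4 expected counts, and 117 and 188 by the second quantifier. As a copy of Rab11b, with 2702 and 3804 expected counts, it may share reads with that gene, and the division between them is uncertain. The processed pseudogene Rab7-ps1 had 0 expected counts in replicate 1 and 9.9 in replicate 2, or 2.33 in replicate 2 by the second quantifier. By edgeR Rab10os, Rab26os and Rab11b-ps2 did not pass the test of a difference between the libraries.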

How the results depend on the processing

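No paired analysis was possible because the labels give 1 group of 2 animals. The count of Rab genes that differed between the libraries was 0 under all 5 alternatives, with 1 Rab gene, Rab20, at an unadjusted p under 0.05 when no filter was used. Over all genes 130 passed, and 94 to 130 under 4 alternatives, but 341 with a common dispersion. The median log2 ratio of the Rab genes, 0.11, turned to -0.12 under spike-in scaling. Rab genes detected numbered 48 to 54 under other thresholds, 51 by the second quantifier and 52 in either library alone. The share of Rab3a, 13.2%, was 12.6% and 13.8% in single libraries and 6.92% as a share of summed expected counts, which are not corrected for transcript length. The 7 steps with bounds apart in both libraries became 20 with bounds apart in at least 1 library, and 13 and 14 in single libraries. By the second quantifier 36 of 59 gene levels moved by more than 1 SD of the 2 libraries, and 1 of the 51 detected, Rab43, by over 1.5 times. The part of CAST/EiJ alleles and of the strand used in counting was not tested.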
